A study of Mus musculus with 15 samples.

Results

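The genes described here are grouped as inhibitory receptors of T cells: Pdcd1 (PD-1), Ctla4, Lag3, Havcr2 (TIM-3), Tigit, Cd160, Btla, Slamf6 (Ly108), Cd244 (2B4) and Entpd1 (CD39). Entpd1 encodes an ectoenzyme and not a receptor, but it is counted with the receptor genes throughout. All 10 genes were chosen by gene symbol. Of the 10 genes, 8 are among the 11262 genes of the table that covers naïve CD8+ T cells and those activated for 24 h, where Havcr2 and Cd244 are not listed. In the table of cytotoxic T lymphocytes (CTL), 9 are among the 11211 genes, and Btla is not listed. Both tables hold 7 of the 10.

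RNA sequencing was performed on CD8+ T cells from LCMV-P14 TCR transgenic mice, whose T cells carry a receptor for the lymphocytic choriomeningitis virus peptide gp33-41, so all 15 libraries share this transgene. Naïve cells were sorted straight from the lymph nodes of female mice aged 9 to 13 weeks. TCR activated cells spent 24 h in medium holding IL-12 (2 ng/ml), IL-2 (20 ng/ml), the peptide (100 ng/ml) and DMSO as the vehicle. A matched culture also received 10 µM IC87114, an inhibitor of the phosphoinositide 3-kinase catalytic subunit p110δ (PI3Kdi). Each of the 3 replicates of these 3 groups came from 3 mice whose cells were mixed and then split over the conditions, so a replicate stands for a pool and not for a mouse. CTL were grown in IL-2 after activation, washed, and then either returned to 20 ng/ml IL-2 or left without IL-2 for 24 h, with 3 replicates each and no age given. Among the CTL kept in IL-2, the treatment labels of replicates 2 and 3 name another interleukin, and these libraries were grouped by their titles.

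Inhibitory receptors damp signals from the T cell antigen receptor and its co-receptors, and most do so through phosphatases bound to their cytoplasmic tails or by taking ligands away from activating receptors. Many are absent from resting T cells, appear after antigen is met, and remain high on T cells that are exhausted in chronic infection or tumours, so their presence marks both activation and exhaustion. PI3K p110δ is the main PI3K catalytic subunit acting below the antigen receptor and the IL-2 receptor in these cells, and it restrains FOXO transcription factors through the kinase AKT. The comparisons ask how these receptor mRNAs differ after activation with antigen and cytokines, with p110δ inhibition during activation, and after loss of IL-2 in effector cells.

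Values are FPKM, fragments scaled by exon length and library size, which can be compared between genes because they are scaled by length. A gene was called where its adjusted p from limma was under 0.05 and its fold change over 2, both on log2(FPKM + 0.1). The labelled cell type was checked with 6 genes of the CD8 and CD3 complexes, all listed in both tables, whose summed FPKM was 3287 to 3585 in naïve, 671 to 725 in TCR activated and 851 to 995 in PI3Kdi libraries, and 1033 to 1093 and 1935 to 2140 in CTL with and without IL-2. Of 6 B cell genes, 4 are listed in the first table at a summed 20.9 to 26.3 FPKM in naïve, 4.63 to 7.12 in TCR activated and 3.3 to 4.58 in PI3Kdi cells, mostly from Cd79b. Of 8 myeloid genes only Itgam is listed there, at no more than 0.3 FPKM, and neither NK cell gene is. Of 4 CD4 or regulatory T cell genes, 3 are listed there (Cd4 is not), at a summed 3.76 to 4.88 FPKM in naïve, 2.03 to 2.26 in TCR activated and 3.11 to 3.79 in PI3Kdi cells. Replicates of a group correlated at r of 0.983 or more across genes. The 2 tables were normalised separately, so no test was made across them and a level set beside one from the other table is a description.

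**Figure D1:**
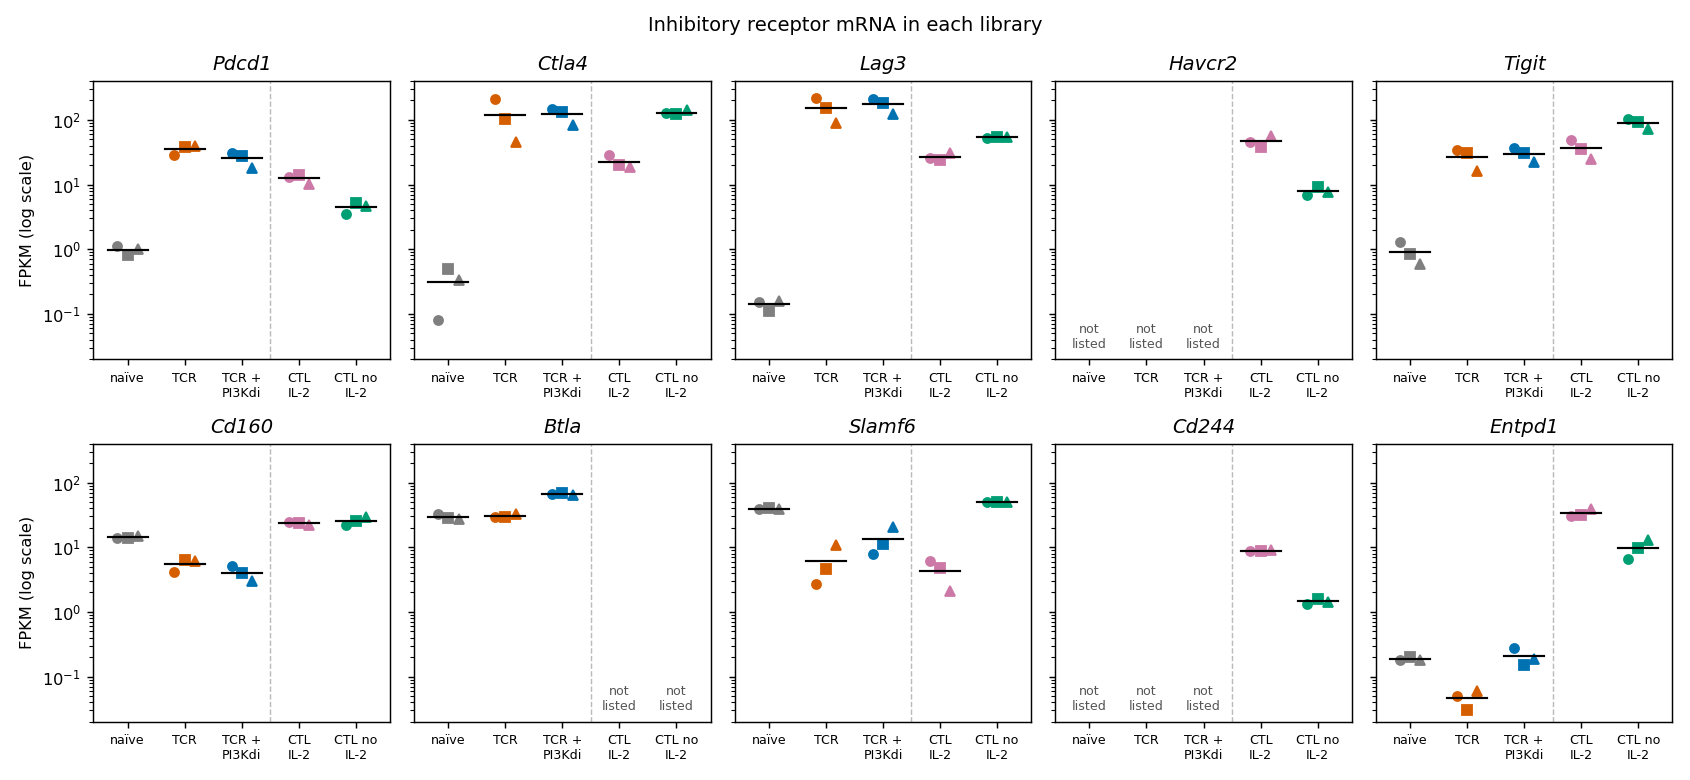
FPKM of each of the 10 inhibitory receptor genes in every library on a log axis, with circles, squares and triangles for replicates 1, 2 and 3 and a bar at the group mean. The dashed line divides the separately normalised tables. Pdcd1, Ctla4, Lag3 and Tigit sit at or under 1.28 FPKM in naïve libraries and at 16.48 or more in activated ones, while Btla is raised in the PI3Kdi libraries alone among the groups in which it is listed.

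Naïve cells held mRNA for 3 of the receptors at a substantial level. Slamf6, a SLAM family receptor that binds itself on neighbouring cells and signals through the adaptor SAP, measured 38.53, 40.86 and 38.6 FPKM in the 3 naïve libraries, above 81.7% of listed genes. Btla, which binds the TNF receptor family member HVEM, measured 33.1, 28.68 and 27.76 FPKM. Cd160, a lipid-anchored receptor that also binds HVEM, measured 14.08, 13.88 and 15.02 FPKM. The libraries of each gene lay close together, with coefficients of variation of 3.37% for Slamf6, 9.56% for Btla and 4.25% for Cd160. The other 5 listed genes were near the floor of the table, from a mean of 0.14 ± 0.0265 FPKM (SD, n = 3) for Lag3 to 0.983 ± 0.158 for Pdcd1. In the order of naïve levels, Slamf6 lay above Btla and Btla above Cd160 with no overlap between libraries, whereas Pdcd1 and Tigit overlapped.

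In TCR activated cells, 4 of the 8 listed receptor genes were called higher and 2 lower than in naïve cells. The 2 groups differed in peptide, IL-2, IL-12, vehicle, culture for 24 h and the way of sorting. The parts of these cannot be told apart. In this comparison 25% of all genes were called higher and 23.7% lower, so the 4 and 2 are set against a table in which about as many genes rose as fell. The median log2 fold change was 2.39 over the 8 genes and 0.0054 over all genes. In these bulk libraries fewer cells carrying an mRNA and less of it in each cell cannot be told apart.

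Lag3, which binds MHC class II, went from 0.15, 0.11 and 0.16 FPKM in naïve cells to 220.96, 155.56 and 90.07 after activation. Its log2 fold change was 9.25 (SE 0.28, limma adjusted p = 1.96e-10), the highest of the group. Ctla4, which outcompetes CD28 for CD80 and CD86, went from 0.08, 0.5 and 0.34 to 212.42, 102.64 and 45.22 FPKM. Every activated library stood far above every naïve one for both genes, but the activated libraries themselves spread widely, with replicate 1 the highest and replicate 3 the lowest for both. The log2 fold change of Ctla4 was 8.10 (SE 0.53, limma adjusted p = 6.76e-08). With naïve values this low the size of both folds depends on the value added before the log: it was 7.01 for Lag3 and 6.28 for Ctla4 with 1 FPKM added and 9.94 and 8.62 with 0.01, all still called.

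Pdcd1, the receptor for PD-L1 and PD-L2, measured 1.12, 0.81 and 1.02 FPKM in naïve cells and 29.04, 38.19 and 39.51 after activation. Tigit, which binds the poliovirus receptor and competes with the activating receptor CD226, measured 1.28, 0.85 and 0.59 against 34.16, 30.83 and 16.48 FPKM. Neither gene overlapped between the groups. Pdcd1 had a log2 fold change of 5.04 (SE 0.20, limma adjusted p = 1.46e-09) and Tigit one of 4.75 (SE 0.31, limma adjusted p = 6.34e-08). At 24 h the mean levels ran, from the highest, in the order Lag3, Ctla4, Pdcd1, Btla and Tigit, in which Lag3 and Ctla4 overlapped, as did Pdcd1, Btla and Tigit.

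The 2 genes that fell were Slamf6 and Cd160. Slamf6 dropped from the naïve values above to 2.67, 4.66 and 10.81 FPKM, a log2 fold change of -2.91 (SE 0.43, limma adjusted p = 7.09e-05), and Cd160 to 4.14, 6.46 and 6.11 FPKM, a log2 fold change of -1.37 (SE 0.20, limma adjusted p = 7.15e-05). All activated libraries lay below all naïve ones for both. Btla measured 29.31, 29.41 and 32.61 FPKM after activation, overlapping the naïve values. Its log2 fold change was 0.03, with a 95% confidence interval from -0.17 to 0.23 (limma adjusted p = 0.758), so a change of 2-fold lies outside the interval.

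Entpd1, the ectoenzyme that splits extracellular ATP and ADP to AMP, was listed at 0.18, 0.2 and 0.18 FPKM in naïve and at 0.05, 0.03 and 0.06 in activated cells. Its log2 fold change of -0.97 (SE 0.25, limma adjusted p = 0.00341) was under the 2-fold limit. At values this close to 0 the added 0.1 sets the fold: with 0.01 added the log2 fold change was -1.83 (limma adjusted p = 0.00227) and past the limit. Leaving out TCR activated replicate 3 also took it past the limit, at -1.04 (limma adjusted p = 0.00505).

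**Figure D2:**
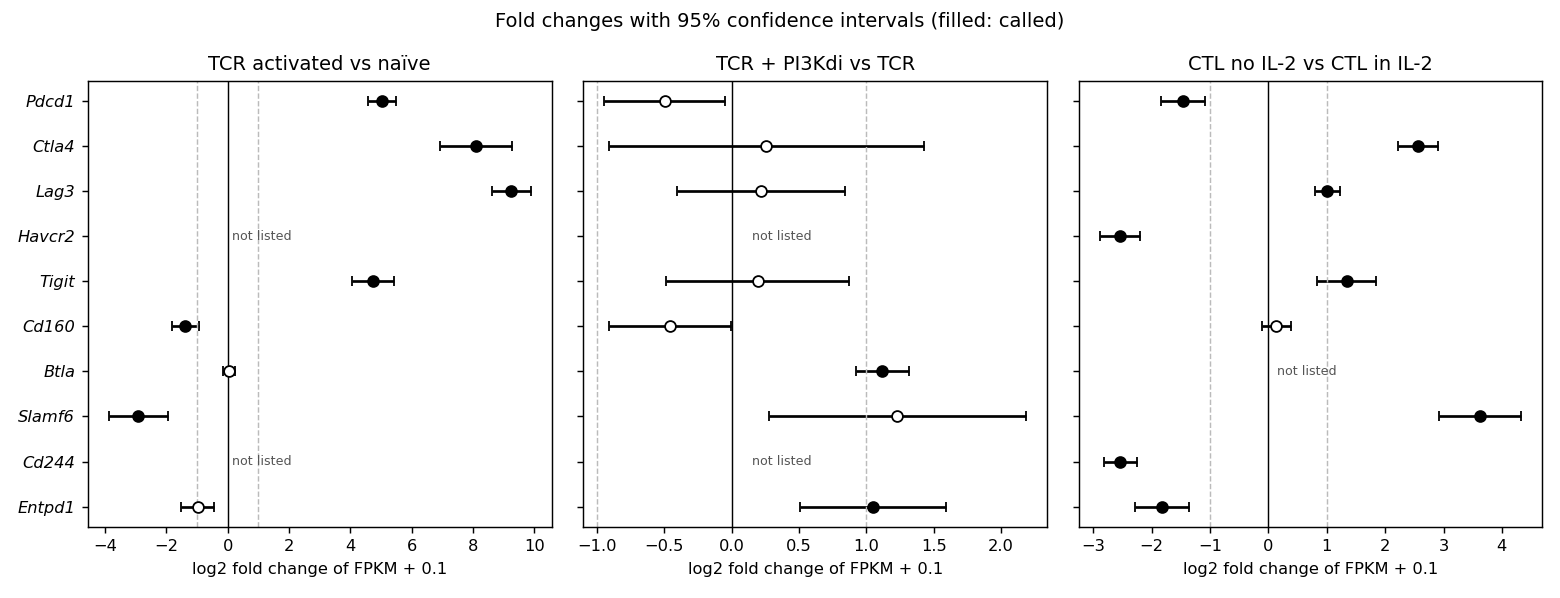
Log2 fold change of FPKM + 0.1 for each gene (points) with its 95% confidence interval (bars) in 3 comparisons, each panel on its own scale. Filled points were called, open ones not, and dashed lines mark 2-fold. With PI3Kdi the called genes are Btla and Entpd1, whereas without IL-2 Slamf6, Ctla4, Tigit and Lag3 lie to the right and Havcr2, Cd244, Entpd1 and Pdcd1 to the left.

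With p110δ inhibited during activation, 2 of the 8 genes were called higher and 0 lower than in TCR activated cells. As background, 3.04% of all genes were called higher and 2.1% lower. At an unadjusted limma p under 0.05 with no fold limit, 3 of the 8 were higher and 2 lower, beside 16.1% of all genes higher and 15.4% lower. The median log2 fold change was 0.24 over the 8 genes and -0.0076 over all genes. This comparison and the one of activated with naïve cells share the TCR activated libraries.

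Btla had the narrowest error of the group. It measured 66.69, 68.24 and 63.46 FPKM with PI3Kdi, against 29.31, 29.41 and 32.61 without the inhibitor and the nearly equal values of naïve cells. The PI3Kdi libraries all lay above the other 6, and within each pool the ratio of PI3Kdi to TCR activated was 2.28, 2.32 and 1.95. The log2 fold change was 1.12 (SE 0.09, limma adjusted p = 1.75e-05) against TCR activated and 1.15 (SE 0.09, limma adjusted p = 3.41e-07) against naïve cells. B cells also express Btla. The activated cells had been sorted as live CD8+ cells. Of the listed B cell genes, Cd79b measured 2.79 to 3.77 FPKM with PI3Kdi and 2.58 to 3.48 without, while the 4 together summed to 3.3 to 4.58 and 4.63 to 7.12. The 3 listed CD4 or regulatory T cell genes summed to 3.11 to 3.79 FPKM with PI3Kdi and 2.03 to 2.26 without. The largest part was Ikzf2, at 1.75 to 2.31 and 1.32 to 1.51 FPKM. Of these 3 genes, 0 were called higher and 0 lower. The part of either list in the Btla value was not tested. Across the 9 libraries of this table the genes whose log2 level followed Btla most closely among 10065 compared were Gpr83 (Pearson r = 0.984), Klhl6 (r = 0.976) and Rragd (r = 0.975), all points sharing the same 3 pools.

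Slamf6 measured 7.74, 11.42 and 20.43 FPKM with PI3Kdi and 2.67, 4.66 and 10.81 without, so the groups overlapped. The lowest PI3Kdi library and the lowest TCR activated library came from the same pool, as did the highest of each. Within a pool the level was higher with PI3Kdi in 3 of 3 pools, by ratios of 2.90, 2.45 and 1.89. Without the pools in the model the log2 fold change was 1.23 (SE 0.43, limma adjusted p = 0.0752). With the replicate number as a block it was past the threshold (SE 0.29, limma adjusted p = 0.0207), and leaving out TCR activated replicate 3 gave 1.76 (limma adjusted p = 0.00602). Slamf6 with PI3Kdi stayed below the naïve level, with a log2 fold change of -1.68 (SE 0.43, limma adjusted p = 0.00398), which leaving out replicate 2 of every group took out of the call at -1.61 (limma adjusted p = 0.052).

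Entpd1 measured 0.28, 0.15 and 0.19 FPKM with PI3Kdi, above the 0.03 to 0.06 of TCR activated cells and overlapping the naïve libraries. The log2 fold change against TCR activated was 1.05 (SE 0.25, limma adjusted p = 0.0146). This call was lost with 1 FPKM added before the log (log2 fold change 0.20, limma adjusted p = 0.0676), without TCR activated replicate 2 (limma adjusted p = 0.055) and without PI3Kdi replicate 1 (limma adjusted p = 0.0593). It was also lost when any whole pool was left out (limma adjusted p = 0.116 without pool 1, 0.138 without pool 2 and 0.0521 without pool 3). Its closest genes over the 9 libraries, among 10065 compared, were C330006A16Rik (Pearson r = 0.952), Zfp667 (r = 0.943) and Trib2 (r = 0.936). The highest of so many r is large by selection, and Entpd1 lay near the floor here, so these genes are a description.

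The other 5 genes had overlapping libraries with and without the inhibitor and were not called. Pdcd1 measured 30.74, 28.07 and 17.99 FPKM with PI3Kdi, and its log2 fold change was -0.50 (95% confidence interval -0.95 to -0.05, limma adjusted p = 0.12). Cd160 measured 5.09, 4.06 and 2.98 FPKM, with a log2 fold change of -0.46 (interval -0.91 to -0.01, limma adjusted p = 0.151). For both, PI3Kdi was the higher condition in pool 1 and the lower in pools 2 and 3.

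Ctla4 measured 148.71, 134.41 and 83.94 FPKM with PI3Kdi, Lag3 211.18, 184.81 and 124.85, and Tigit 37.15, 31.32 and 22.31. Pool 3 gave the lowest value of all 3 genes in both activated groups, and pool 1 the highest. The log2 fold changes were 0.26 for Ctla4 (95% confidence interval -0.91 to 1.42, limma adjusted p = 0.787), 0.22 for Lag3 (-0.41 to 0.84, limma adjusted p = 0.646) and 0.19 for Tigit (-0.49 to 0.87, limma adjusted p = 0.716). A 2-fold rise lies inside the interval of Ctla4 and outside those of Lag3 and Tigit. Leaving out TCR activated replicate 3 turned the 3 directions, to -0.31 for Ctla4, -0.13 for Lag3 and -0.13 for Tigit, so no direction is drawn for them.

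**Figure D3:**
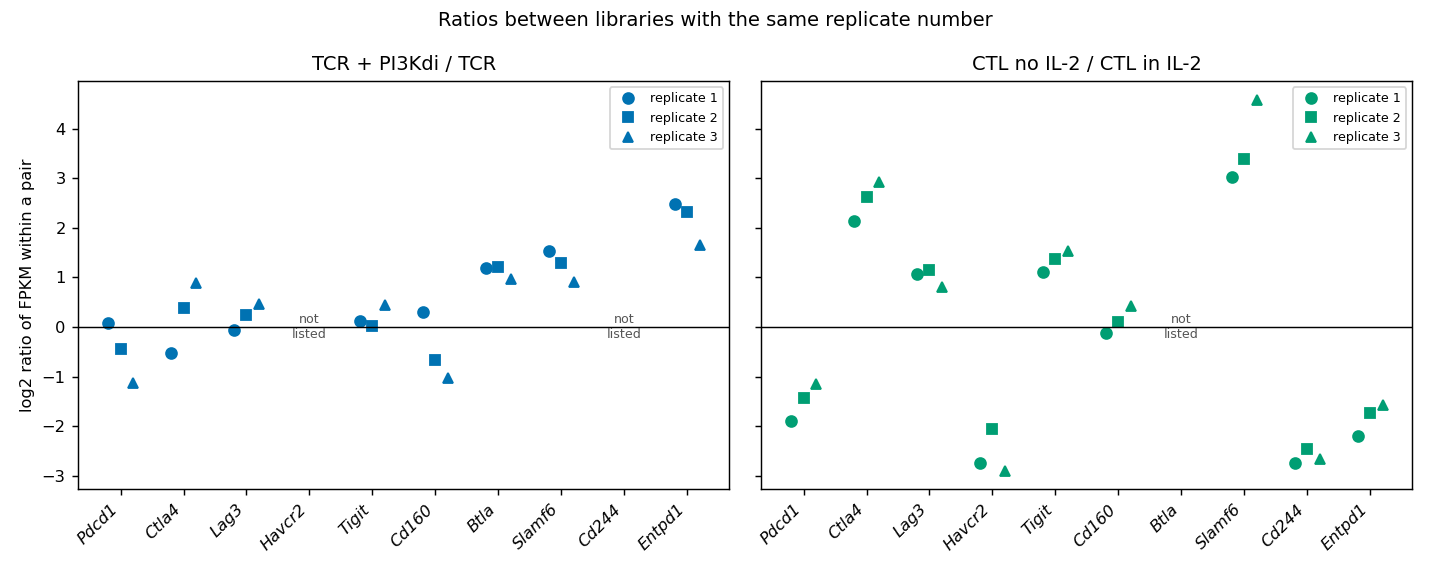
Log2 ratio of FPKM between libraries with the same replicate number, PI3Kdi over TCR activated on the left and CTL without IL-2 over CTL in IL-2 on the right, with 1 point for each of 3 replicates. Btla, Slamf6 and Entpd1 lie above 0 in all 3 pools on the left, Tigit does so narrowly, and Pdcd1, Ctla4, Lag3 and Cd160 have points on both sides.

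Set against naïve cells, the PI3Kdi cells had 5 of the 8 genes called higher and 2 lower, beside 23.6% of all genes higher and 21.3% lower. The 5 were Lag3 (log2 fold change 9.47), Ctla4 (8.36), Tigit (4.94), Pdcd1 (4.54) and Btla (1.15), and the 2 were Cd160 (-1.83) and Slamf6 (-1.68). Entpd1 had a log2 fold change of 0.08 (interval -0.47 to 0.62, limma adjusted p = 0.784). The median was 2.85 over the 8 genes and 0.0036 over all genes, and the naïve libraries are those of the first comparison.

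In CTL left without IL-2 for 24 h, 4 of the 9 listed receptor genes were called higher and 4 lower than in CTL kept in IL-2. As background, 14.3% of all genes were called higher and 13.9% lower. The median log2 fold change was 0.13 over the 9 genes and -9e-04 over all genes. For each of the 8 called genes all 3 libraries of 1 group lay outside the range of the other. The ratio also had the same direction in 3 of 3 replicate pairs. Genes past the threshold tend to be separated in this way, and the share over all genes was not computed. The separation therefore adds nothing to the calls.

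Slamf6 rose most. It measured 6.14, 4.83 and 2.08 FPKM in CTL with IL-2 and 50.1, 50.48 and 49.93 without, a log2 fold change of 3.63 (SE 0.31, limma adjusted p = 6.62e-06). The libraries without IL-2 varied by 0.561% around their mean while those with IL-2 varied by 47.6%, so the spread of the fold came from the group with IL-2. Ctla4 measured 29.02, 19.79 and 18.61 FPKM with IL-2 and 127.41, 121.86 and 141.64 without, a log2 fold change of 2.56 (SE 0.15, limma adjusted p = 8.98e-07). At a mean of 130 ± 10.2 FPKM it was the most abundant of the receptor mRNAs in CTL without IL-2, above 95.9% of listed genes and above every library of Tigit.

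Tigit measured 48.39, 36.12 and 24.63 FPKM with IL-2 and 103.89, 94.15 and 71.53 without, a log2 fold change of 1.34 (SE 0.22, limma adjusted p = 0.000467). Replicate 3 was the lowest library in both groups. Lag3 measured 25.39, 24.38 and 30.69 FPKM with IL-2 and 53.45, 53.86 and 53.93 without. Its log2 fold change of 1.01 (SE 0.10, limma adjusted p = 1.23e-05) lay at the 2-fold limit, and it went under the limit with 1 FPKM added (0.98) and without replicate 1 (0.97) or replicate 2 (0.94) of the CTL in IL-2.

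The 4 genes that fell included the pair not listed in the other table. Havcr2, which binds galectin-9 and phosphatidylserine, measured 45.38, 38.34 and 56.09 FPKM with IL-2 and 6.83, 9.25 and 7.56 without, a log2 fold change of -2.54 (SE 0.15, limma adjusted p = 9.14e-07). It had the highest mean of the 9 genes in CTL with IL-2, 46.6 ± 8.94 FPKM (SD, n = 3), overlapping Tigit and Entpd1. Cd244, the SLAM family receptor for CD48, measured 8.83, 8.81 and 9.11 FPKM with IL-2 and 1.32, 1.61 and 1.44 without, a log2 fold change of -2.54 (SE 0.13, limma adjusted p = 4.15e-07). Without IL-2, Havcr2 and Cd244 thus stood at nearly the same fraction of their level in CTL with IL-2. The fractions were 0.172 and 0.172 on the log2(FPKM + 0.1) scale, although the levels with IL-2 differed.

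Entpd1 measured 30.45, 32.15 and 38.52 FPKM with IL-2 and 6.67, 9.64 and 12.97 without, a log2 fold change of -1.82 (SE 0.21, limma adjusted p = 3.86e-05). Pdcd1 measured 13.19, 13.97 and 10.16 FPKM with IL-2 and 3.55, 5.18 and 4.59 without, a log2 fold change of -1.47 (SE 0.17, limma adjusted p = 4e-05). PD-1 and CTLA-4 mRNAs therefore moved in opposite directions in the same libraries. Cd160 was not called, with 24.3, 23.66 and 22.27 FPKM against 22.33, 25.55 and 29.74 and a log2 fold change of 0.13 (interval -0.11 to 0.38, limma adjusted p = 0.29), so a 2-fold change in either direction lies outside its interval.

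The order of the receptors accordingly differed between the CTL groups. With IL-2 the means ran from Havcr2 through Tigit, Entpd1, Lag3, Cd160, Ctla4, Pdcd1 and Cd244 to Slamf6, and the neighbours in that order overlapped except for Lag3 over Cd160, Ctla4 over Pdcd1, Pdcd1 over Cd244 and Cd244 over Slamf6. Without IL-2 they ran from Ctla4 through Tigit, Lag3, Slamf6, Cd160, Entpd1, Havcr2 and Pdcd1 to Cd244, and only Entpd1 and Havcr2 overlapped among neighbours.

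Genes listed for other cell types also had higher values in CTL without IL-2. Without IL-2 the myeloid genes Itgam and Itgax, the listed 2 of 8, summed to 7.59 to 9.27 FPKM against 0.5 to 0.72, Cd79b, the listed 1 of 6 B cell genes, measured 10.8 to 20.6 against 2.74 to 6.3, and the listed 3 of 4 CD4 or regulatory T cell genes summed to 29.2 to 32.6 against 16.9 to 21.7. Most of this last sum came from Zbtb7b, at 24.63 to 28.31 against 16.7 to 20.97 FPKM. Cd4 measured 0.92 to 1.92 against 0.05 to 0.39, and Ikzf2 2.36 to 3.61 against 0.18 to 0.37. The NK cell gene Klrb1c, the listed 1 of 2, measured 2.17 to 3.41 against 1.2 to 1.88. Of the listed genes, 2 of 2 myeloid genes and 1 of 1 B cell genes were called higher. So were 2 of 3 CD4 or regulatory T cell genes, Ikzf2 and Cd4, but 0 of 1 NK cell genes. In this comparison 14.3% of all genes were called higher. The part of these genes in the receptor values was not tested. The 6 CD8 and CD3 genes also had a higher sum without IL-2, and 3 of 6 were called higher, beside the same 14.3%. Cd8a overlapped between the groups, at 115.06 to 133.97 FPKM without and 107.02 to 117.26 with IL-2. Cd247 did so too, at 58.55 to 71.07 and 50.72 to 61.58 FPKM.

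The sequences just before the start sites of the 2 genes that rose most and the 2 that fell most without IL-2 are given here because these members define the ends of the response. They are the 250 bases before the start from RefSeq (GRCm38.p6, plus strand), with Slamf6 at chr1:171917212-171917461, Ctla4 at chr1:60908775-60909024, Havcr2 at chr11:46454681-46454930 and Cd244 at chr1:171558943-171559192. The start is that of the transcript in the promoter table, which for Cd244 lies 475 bases and for Slamf6 4 bases inside the RefSeq gene record, so the Cd244 window falls within that record. Capitals mark a match to the AP-1 motif TGANTCA.
Slamf6: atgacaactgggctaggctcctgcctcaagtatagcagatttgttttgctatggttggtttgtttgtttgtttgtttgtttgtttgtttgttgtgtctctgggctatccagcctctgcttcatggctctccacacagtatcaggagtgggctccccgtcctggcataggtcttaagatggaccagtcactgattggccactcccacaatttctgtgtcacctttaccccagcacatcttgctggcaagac
Ctla4: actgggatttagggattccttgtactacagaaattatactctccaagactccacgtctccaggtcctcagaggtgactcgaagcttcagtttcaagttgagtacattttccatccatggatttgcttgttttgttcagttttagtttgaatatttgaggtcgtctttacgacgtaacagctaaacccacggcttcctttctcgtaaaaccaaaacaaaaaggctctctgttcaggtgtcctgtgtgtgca
Havcr2: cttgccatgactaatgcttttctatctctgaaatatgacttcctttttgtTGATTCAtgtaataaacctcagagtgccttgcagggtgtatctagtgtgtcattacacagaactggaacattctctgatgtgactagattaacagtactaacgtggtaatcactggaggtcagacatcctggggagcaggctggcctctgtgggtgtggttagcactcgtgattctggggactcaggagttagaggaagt
Cd244: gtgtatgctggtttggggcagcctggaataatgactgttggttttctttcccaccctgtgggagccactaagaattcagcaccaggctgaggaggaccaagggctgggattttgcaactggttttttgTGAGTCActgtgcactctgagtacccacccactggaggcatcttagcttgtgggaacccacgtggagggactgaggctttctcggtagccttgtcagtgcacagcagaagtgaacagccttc

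Of the 10 genes, 9 had a promoter in the RefSeq table, with 11 windows of 300 bases (250 before and 50 after the start). The AP-1 motif, searched on both strands, was found in Havcr2 (first base at -200 from the start) and in Cd244 (at -122), and in 7.81% of 32851 promoters. The STAT5 motif TTCNNNGAA was found in 1 of the Cd160 windows (at -234), and in 8.3% of promoters. The FOXO motif GTAAACA was in no member's window and in 3.65% of promoters. These motifs do not overlap in the members' windows, and a match or its absence in such a window is a description of letters.

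The genes lie at scattered and at neighbouring positions (GRCm38.p6). Ctla4 is at chr1:60909025-60915832 and Pdcd1 at chr1:94038305-94052553, and the SLAM genes Cd244 (RefSeq symbol Cd244a, chr1:171558718-171585316) and Slamf6 (chr1:171917458-171948958) share a region of the same chromosome. Btla (chr16:45223705-45252895) and Tigit (chr16:43626137-43665125) share chromosome 16. Lag3 is at chr6:124904359-124912434, Havcr2 at chr11:46454931-46481255, Cd160 at chr3:96798763-96829351 and Entpd1 at chr19:40612366-40741602. Tigit overlaps Zbtb20, Cd160 overlaps Pdzk1 and Slamf6 overlaps Gm37065, each on the opposite strand, as is Mir568 within Tigit. Entpd1 overlaps AC166063.1, annotated as sense intronic, and the processed pseudogenes Gm16027 and Gm8783 on its own strand. These are overlaps of whole gene spans and not of exons. Whether reads of the partners entered any of the FPKM was not tested. Because the use of strand in counting is not given in the sources used here, reads of these partners cannot be told apart with certainty.

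The other genes of the pathway were described from lists of ligands, signalling proteins, further inhibitory receptors, SLAM family members, adenosine genes and transcription factors. After TCR activation, 2 of 12 listed further inhibitory receptors were called higher and 8 lower, with a median log2 fold change of -3.07 against 0.0054 over all genes. The 2 were Lilrb4 (log2 fold change 5.91, limma adjusted p = 9.32e-10) and Klrc1 (4.82, limma adjusted p = 1.19e-07), and Cd72 was the lowest (-4.52, limma adjusted p = 1e-09). Klrc1, which encodes the NK receptor NKG2A, was listed at 0 in the naïve libraries, so its fold depends on the value added. The background shares given for each comparison above apply to these lists too.

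With PI3Kdi, 1 of the 12 further inhibitory receptors rose and 1 fell. Pecam1, an adhesion receptor with inhibitory tail motifs, went from 2.76 ± 0.647 to 6.24 ± 1.78 FPKM (log2 fold change 1.13, limma adjusted p = 0.0033), and Klrc1 from 2.97 ± 1.34 to 0.243 ± 0.0666 (-3.06, limma adjusted p = 0.000167). Without IL-2, 6 of 13 rose and 0 fell. The largest rises were in Cd101, an immunoglobulin family receptor (log2 fold change 3.13, limma adjusted p = 5.57e-07), Cd5, which sets the threshold of antigen receptor signalling (2.06, limma adjusted p = 2.59e-06), and Cd72 (1.90, limma adjusted p = 1.91e-05).

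**Figure D4:**
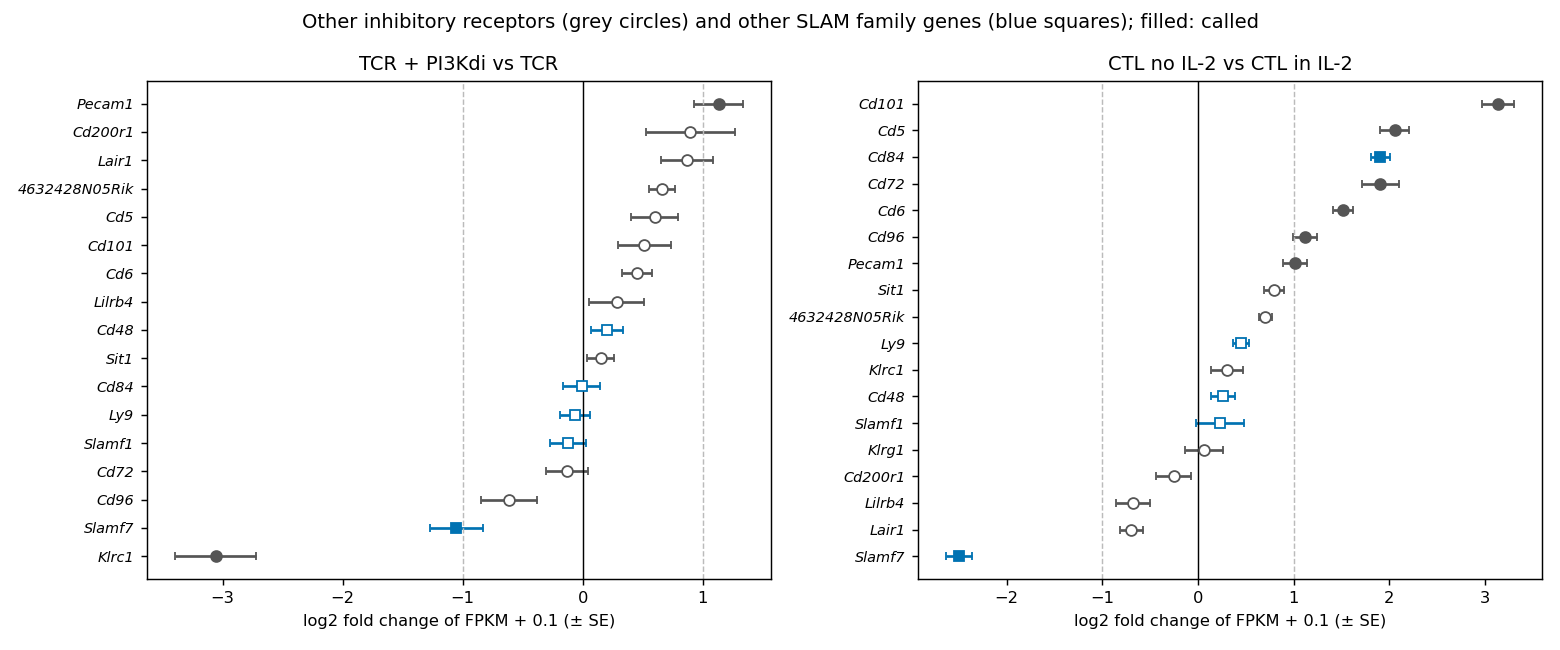
Log2 fold change of FPKM + 0.1 (points) with its standard error (bars) for the other inhibitory receptors and the other SLAM family genes listed in each table, sorted by value, with filled symbols called. With PI3Kdi 1 further inhibitory receptor is called higher and 1 lower, and without IL-2 6 are called higher and 0 lower.

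Among the 5 listed SLAM family relatives of Slamf6 and Cd244, 2 rose and 3 fell after activation, 0 rose and 1 fell with PI3Kdi, and 1 rose and 1 fell without IL-2. Slamf7, an activating or inhibitory receptor depending on its adaptors, was the 1 that fell with PI3Kdi, from 18.2 ± 6.20 to 8.44 ± 0.907 FPKM (log2 fold change -1.05, limma adjusted p = 0.00795). It also fell without IL-2, from 47.4 ± 9.01 to 8.24 ± 0.666 FPKM (-2.50, limma adjusted p = 5.36e-07), where Cd84 rose from 7.06 ± 0.348 to 26.8 ± 2.74 FPKM (1.91, limma adjusted p = 5.27e-07). Slamf6 and its relative Slamf7 thus had opposite directions without IL-2.

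Of 13 listed signalling genes, 0 rose and 6 fell after activation, 1 rose and 2 fell with PI3Kdi, and in CTL 2 of 14 rose and 1 fell without IL-2. Sh2d1a encodes SAP, the adaptor of Slamf6 and Cd244. It fell with PI3Kdi, from 67.5 ± 18.9 to 10.5 ± 2.44 FPKM (log2 fold change -2.65, limma adjusted p = 4.13e-05), and rose without IL-2, from 21.7 ± 4.46 to 80.4 ± 7.77 FPKM (1.90, limma adjusted p = 2.39e-06). Trat1, which encodes the CTLA-4 partner TRIM, had a log2 fold change of -1.64 with PI3Kdi (limma adjusted p = 0.0134) and of 1.64 without IL-2 (limma adjusted p = 0.00147). The phosphatase gene Ptpn22 rose with PI3Kdi, from 28.3 ± 3.37 to 67.6 ± 11.5 FPKM (1.24, limma adjusted p = 0.000142).

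Of the 10 listed ligand genes, 4 rose and 4 fell after activation, 0 rose and 1 fell with PI3Kdi, and 2 rose and 2 fell without IL-2. The 1 with PI3Kdi was Cd80, a ligand of CTLA-4, at 3.32 ± 1.94 FPKM without and 0.743 ± 0.605 with the inhibitor (log2 fold change -2.14, limma adjusted p = 0.0168). Without IL-2 the PD-1 ligand gene Pdcd1lg2 fell from 6.12 ± 1.21 to 1.54 ± 0.212 FPKM (-1.92, limma adjusted p = 9.97e-06), and Tnfrsf14, which encodes HVEM, rose from 16.4 ± 0.809 to 38.7 ± 9.27 FPKM (1.21, limma adjusted p = 6.15e-05).

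Of the 9 adenosine genes, 1 rose and 2 fell with PI3Kdi. Nt5e encodes CD73, the enzyme that turns AMP into adenosine, and rose from 0.41 ± 0.0693 to 4.997 ± 0.555 FPKM (log2 fold change 3.33, limma adjusted p = 2.15e-06), while the receptor gene Adora2a fell from 11.6 ± 3.25 to 4.86 ± 0.331 (-1.21, limma adjusted p = 0.000879). After activation 4 rose and 2 fell, and without IL-2 3 rose and 2 fell. Adora2a rose without IL-2 (log2 fold change 2.52, limma adjusted p = 4.71e-07) and Adora2b fell (-4.46, limma adjusted p = 5.13e-07).

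Of the 18 transcription factor genes known for a part in receptor expression, 9 rose and 4 fell after activation and 2 rose and 4 fell with PI3Kdi. With PI3Kdi Tox2 went from 0.387 ± 0.146 to 2.67 ± 0.456 FPKM (log2 fold change 2.54, limma adjusted p = 0.00143), Maf from 0.967 ± 0.366 to 4.90 ± 1.07 (2.27, limma adjusted p = 0.00039) and Nr4a3 from 40.6 ± 8.90 to 7.34 ± 2.18 (-2.47, limma adjusted p = 0.000265). Without IL-2, 3 of 17 rose and 3 fell. Tcf7, which encodes the memory and stem-like factor TCF1, rose from 15.3 ± 4.89 to 599 ± 98.2 FPKM (5.32, limma adjusted p = 1.75e-07), Bach2 from 0.937 ± 0.191 to 10.2 ± 2.64 (3.29, limma adjusted p = 1.08e-06), and Eomes fell from 114 ± 44.5 to 14.0 ± 5.89 (-3.02, limma adjusted p = 1.87e-05).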

How the data were processed

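Poly(A) RNA of 15 libraries was sequenced with a stranded kit. Per the labels and the study's methods, the authors aligned reads to mm10 with STAR 2.5.2b, counted them with Subread 1.5.1, removed genes with low counts, normalised with edgeR and deposited FPKM rounded to 2 decimals. The same steps are assumed for the CTL table, whose processing is not described apart. Of the first table's values, 1039 blank cells were read as 0, and the CTL table has 120 zero values. FPKM hold no counts, so the depth of a library is unknown. Values of short genes lay on average 0.128 to 0.224 of a read from whole reads at the best depth. Without steps 0.25 is expected at 1 fixed depth, but the best of many depths lies lower even then. The comparison therefore cannot show steps, so reads were not recovered and no counting interval is given.

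log2(FPKM + 0.1) was fitted with limma 3.58.1 (R 4.3.3) with an intensity trend, all 9 libraries of the first table together and the 6 CTL libraries apart, and p was adjusted by Benjamini-Hochberg over all genes of a table. Calls needed an adjusted p under 0.05 and a fold change over 2. The fit was tested on simulated data. Replicate numbers mark pools divided between conditions in the first table. Deviations of same-numbered libraries from their group means correlated at 0.275, 0.203 and 0.506 for TCR activated with PI3Kdi. For naïve with TCR activated they correlated at -0.141, 0.226 and -0.181, and for naïve with PI3Kdi at -0.0147, -0.0171 and 0.0303. The CTL pairs gave 0.123, 0.166 and 0.257. Between libraries with different numbers the mean r was, in the same order, -0.161, 0.0167, 0.000407 and -0.0893. Where nothing in the labels ties CTL replicates to separate mice, p-values measure the spread between these samples, which may be technical.

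All 10 receptors are named. From other lists at most the 3 called genes with the largest fold per comparison are named, and like genes only for receptors called with PI3Kdi, among genes with a mean of at least 1 FPKM. The receptors and lists were chosen with earlier results of these data known. Alternatives changed the pseudocount, filter, scaling, fold limit, trend, samples in the fit, replicate block and single libraries, and, chosen after seeing the data, whole pools. Protein sequences were not used here.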

Additional observations from a re-analysis of the deposited data

How the results depend on the processing

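Of 516 fold changes of the receptor genes under the alternatives, 487 kept their direction and their side of the threshold, as did 128 of 142 counts of calls within 1.5 times. With PI3Kdi against TCR activated cells the receptors called numbered 1 with a pseudocount of 1, 1 among genes with a mean of at least 1 FPKM, which removes Entpd1, 1 without pool 1, 1 without pool 2, 2 without pool 3 (Btla and Slamf6) and 1 to 3 when single libraries were left out. All genes called there numbered 311 with a pseudocount of 1, 1975 with no fold limit, 1120 at 1.5-fold and 323 without pool 2, against 579. With no fold limit, calls numbered 9096 for TCR activated against naïve, 8906 for PI3Kdi against naïve and 8056 for CTL, and 5657 for CTL at 1.5-fold. The wider limits add genes by construction, and for the others the cause was not tested.

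Directions turned only for values that were not called. Over single libraries left out, Btla after activation ranged from -0.0194 to 0.1074, and with PI3Kdi Ctla4 ranged from -0.3132 to 0.8015, Lag3 from -0.129 to 0.5179 and Tigit from -0.1317 to 0.3961, each lowest without TCR activated replicate 3. Entpd1 with PI3Kdi against naïve ranged from -0.0896 to 0.2124. Without a whole pool, Btla after activation was -0.0694 (pool 3), Ctla4 with PI3Kdi -0.0627 (pool 3), Entpd1 with PI3Kdi against naïve -0.1062 (pool 1) and Cd160 without IL-2 -0.0055 (replicate 3). The replicate block changed the call of Slamf6 with PI3Kdi (log2 fold change 1.2294, limma adjusted p = 0.0207) and no other receptor's call. Entpd1 in the first 3 groups lies at 0.03 to 0.28 FPKM, where unknown depth limits what its fold can show.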
